A study of Mus musculus with 18 samples.

Results

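The iPSC clones A7, A9, A10 and H10 (induced pluripotent stem cells) were compared with mouse embryonic stem cells (mESCs), which is 6 of the 18 arrays of the series. The arrays were chosen by their labels alone: A7 and A9 were made with the low-KLF4 cassette and A10 and H10 with the high-KLF4 cassette, and 2 arrays held the mESC line 1A2. The comparison asked which genes still separated the clones from mESCs and whether the 4 clones agreed. All 21789 probes that carry exactly 1 gene symbol were used, of 28853 on the array.

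The labels give the clones' vector and not their starting cells. Reprogramming in the study began from mouse embryonic fibroblasts on a C57BL/6 background, with a Nanog-GFP reporter and the doxycycline-responsive transactivator rtTA at the ROSA locus. The clones' piggyBac transposon delivered Oct4, Klf4, c-Myc and Sox2 as 1 doxycycline-inducible transcript with an mCherry reporter. In the low-KLF4 cassette (OKMS) the Klf4 cDNA is the short form, and in the high-KLF4 cassette (OK+9MS) it is the long form. Each clone is a single line on a single array. The mESC line was derived from male mice homozygous for Nanog-GFP, its strain is not given in the sources used here, and both of its arrays hold that 1 line, so every difference below separates these clones from that line. Clones and mESCs were grown in ES cell medium. The values are RMA signals, which the authors background-corrected and quantile-normalised, on a linear scale. They ran from 20.4 to 18711.6 on the 6 arrays, whose medians lay between 148.9 and 153.4. No detection call comes with them, and levels of different probes are not compared.

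Mouse pluripotent cells are held by a network of transcription factors around Oct4 (Pou5f1), Sox2 and Nanog, whose naive state is fed by LIF and opposed by FGF and ERK signalling. Reprogramming has to switch this network on again, silence the fibroblast programme, erase and rebuild DNA methylation, and keep the parental marks of imprinted genes. The noncoding and microRNA genes of the imprinted Dlk1-Dio3 cluster are the best known place where mouse iPSC clones differ from mESCs and from each other.

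The 4 clones carried markers of pluripotent cells, though not all at the level of mESCs. The paper states that its 4 iPSC clones had been characterised earlier for their contribution to chimeras. RNA signal does not measure that capacity. Nanog read 5975, 6755, 6318 and 6144 in clones A7, A9, A10 and H10, the order used for every gene below, and 6159 and 5349 on the mESC arrays. Sox2 read 4368, 4931, 4755 and 5265 in the clones and 5305 and 3993 in mESCs. Both genes overlapped between the groups (limma adjusted p = 0.306 and 0.75). Over the 11 probes of 10 pluripotent markers, the summed signal ran from 35598 to 38130 in the clones and was 36409 and 37250 in mESCs. Bright probes weigh most in such a sum. Of the 11 probes, 3 were called higher (those of Dppa3, and Epcam) and 3 lower (Zfp42, Pou5f1 and Esrrb). The 3 keratinocyte markers summed to between 292.9 and 310.2 in the clones, against 22598 and 23170.1 in primary keratinocytes. In such bulk samples fewer cells of a type and less RNA per cell cannot be told apart.

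The clones were closer to each other than to mESCs. Among the 6 pairs of clones, 1 to 15 probes differed by at least 2-fold, and the root mean square (RMS) log2 difference ran from 0.14 to 0.19. The 2 mESC arrays differed at 22 probes (RMS 0.21). In the 8 pairs of a clone and an mESC array, 274 to 543 probes differed by at least 2-fold, with RMS values from 0.31 to 0.37, above every pair within a group. The mean RMS distance between groups exceeded that within groups by 0.18 (one-sided exact permutation test over the 15 ways to choose 2 arrays of 6, p = 0.0667, the smallest the design allows).

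**Figure D1:**
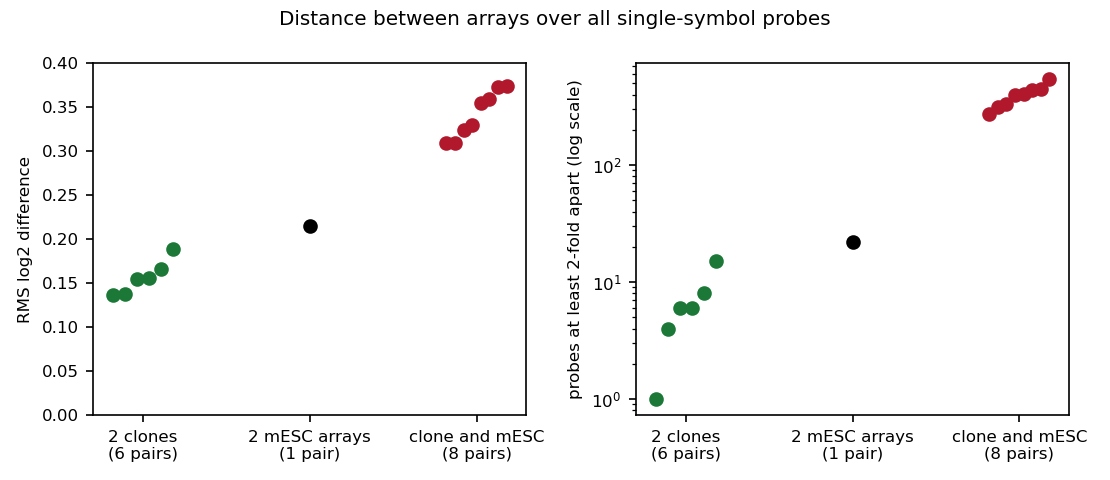
Distance between pairs of arrays over all single-symbol probes, as the RMS log2 difference (left) and as the number of probes at least 2-fold apart (right, log axis). Each point is 1 pair, and the 8 pairs of a clone and an mESC array, at RMS 0.31 to 0.37, lie above the 6 pairs of clones and the pair of mESC arrays.

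Across all probes, limma called 2371 higher in the clones than in mESCs and 1858 lower at an adjusted p under 0.05, which is 10.9% and 8.53% of the probes tested. Most of these changes were small, since 1523 of the higher and 1405 of the lower probes differed by less than 1.5-fold. None of the 4229 called probes overlapped between the groups, in a table where 42.0% of probes did not overlap (19.7% higher and 22.3% lower in the clones). A fit that took the spread from all 18 arrays in 12 groups called 432 higher and 462 lower. Without mESC array 2 the 6-array fit called 1521 higher and 977 lower, and the lower count was 1170 without clone A9 and 1059 without A10.

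A set agreed on by all 4 clones was defined by size. In all 4 clones 95 probes (92 genes) lay at least 2-fold above the mESC mean and 86 probes (81 genes) at least 2-fold below it, 0.436% and 0.395% of the probes, and limma called all of them. Single clones passed 2-fold at 156 to 276 probes above and 130 to 158 below. Thus 34.4% of the higher probes of A7 but 60.9% of those of H10 were shared by all clones, and 54.4% to 66.2% of the lower ones. No probe was 2-fold up in 1 clone and 2-fold down in another. Of the 359 probes 2-fold up in at least 1 clone, 1 had a clone below the mESC mean, and of the 196 that were 2-fold down, 2 had a clone above it. All clones were set against the same mESC mean, and few probes differed by 2-fold between clones. Opposite changes thus had little room to occur, and these counts are no test of agreement. Without mESC array 1 the shared higher set held 145 probes.

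**Figure D2:**
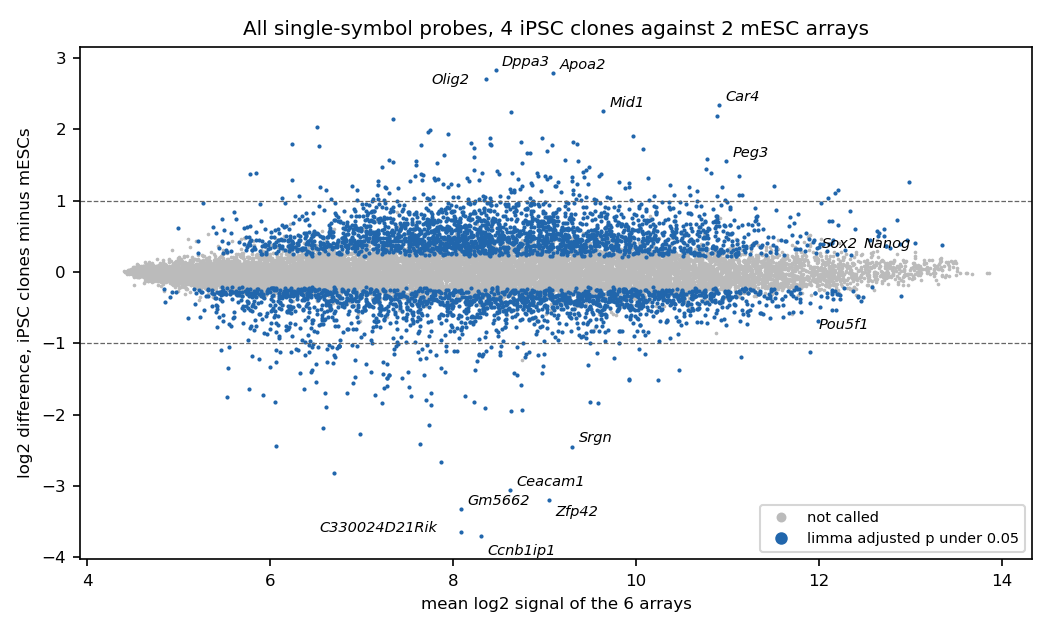
Log2 difference of the clone mean from the mESC mean against the mean log2 signal of the 6 arrays for all 21789 single-symbol probes, with probes called by limma in blue and dashed lines at 2-fold. Ccnb1ip1 at -3.70 and Dppa3 at 2.83 are the outermost points, and Nanog and Sox2 lie near 0 among the bright probes.

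The pluripotency network fell in part. Of its 44 probes, 17 were called lower (38.6%, against 8.53% of all probes) and 2 higher, with a median log2 difference of -0.21 beside -0.02 for all probes. The 12-group fit called 7 lower and 2 higher. Zfp42 (Rex1), a zinc finger gene used as a marker of naive pluripotency, read 174, 369.8, 223 and 286 in the clones and 2386 and 2237 in mESCs. Every clone lay far below both mESC arrays, and A9 was the highest and A7 the lowest of the clones. The difference was 9.13-fold (log2 difference -3.19, SE 0.25, limma adjusted p = 0.000181). On day 18 of reprogramming the single arrays read 129.0 for low-KLF4 and 131.0 for high-KLF4, and the arrays of days 2 to 8 read 49.7 to 70.6. By their labels, all arrays of days 2 to 18, here and below, hold mCherry+ intermediate cells. The paper detected full reprogramming by Nanog-GFP together with loss of mCherry, so the day 18 arrays are not a stage of the clones.

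The window around the start of Zfp42 is shown because it holds the octamer ATGCAAAT, the sequence that Oct4 and its relatives recognise, on the reverse strand as ATTTGCAT. It spans chr8:43306960-43307259 on the minus strand of GRCm38.p6 (RefSeq), from 250 bases before to 50 after the gene's start, and the octamer, in capitals, begins 186 bases before the start. Either strand of the octamer occurs in 1.75% of the 27025 promoter windows of this length, and the match describes the sequence alone. Among the 28 pluripotency network genes with such a window, Zfp42 was the only 1 that held it (3.6%).
Zfp42: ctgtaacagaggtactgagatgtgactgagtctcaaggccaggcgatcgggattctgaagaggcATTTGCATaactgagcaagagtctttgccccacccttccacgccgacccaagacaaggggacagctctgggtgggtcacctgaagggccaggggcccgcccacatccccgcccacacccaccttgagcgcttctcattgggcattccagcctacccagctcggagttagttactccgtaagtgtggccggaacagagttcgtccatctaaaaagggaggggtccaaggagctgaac

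Dppa3 (Stella), a maternal and germ cell gene that protects methylation in the early embryo, moved the other way. It read 731, 689, 677 and 623 in the clones and 103 and 88.9 in mESCs (log2 difference 2.83, SE 0.09, limma adjusted p = 8.98e-06). A second probe with the same symbol read 610.0, 730.2, 707 and 621 against 134 and 147, a log2 difference of 2.24. Both probes put all 4 clones above mESCs, and signal from processed copies of the gene cannot be told apart from it. Gbx2, a LIF target that sustains self-renewal, read 318, 267, 263 and 278 in the clones and 663 and 567 in mESCs (log2 difference -1.13, SE 0.10, limma adjusted p = 0.000286).

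Smaller falls ran through genes of the naive state. Tbx3 differed by -0.74 on the log2 scale, Nr5a2 by -0.72, Nr0b1 by -0.69, Klf2 by -0.62, Prdm14 by -0.81, Fbxo15 by -0.63 and Tet2, which oxidises methylcytosine, by -0.69, each called by limma in the 6-array fit. The 12-group fit also called Nr5a2, Nr0b1 and Prdm14, but not Tbx3, Klf2, Fbxo15 or Tet2 (adjusted p = 0.0686, 0.136, 0.506 and 0.378). Pou5f1 read 4345, 4388, 4449 and 4339 in the clones and 4947 and 6628 in mESCs, so the clones agreed closely and lay below both mESC arrays, the second of which read higher than the first (log2 difference -0.39, SE 0.11, limma adjusted p = 0.0386). Esrrb, an orphan receptor of the naive network, read 1853, 2146, 1908 and 2234 against 2469.6 and 3463 (log2 difference -0.53, SE 0.14, limma adjusted p = 0.0302). Neither call held in the 12-group fit (adjusted p = 0.196 for Pou5f1 and 0.0906 for Esrrb) or each time an array was left out.

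Of the other cassette genes, Myc fell (834, 759, 817 and 587 in the clones, 1428 and 1209.6 in mESCs, log2 difference -0.82, SE 0.14, limma adjusted p = 0.00609). Klf4 read 869, 518, 682 and 674 in the clones and 931 and 1100.2 in mESCs (log2 difference -0.59, SE 0.18, limma adjusted p = 0.052). The clones made with the long Klf4 cDNA, A10 and H10, lay between the low-KLF4 clones A7 and A9. On the 8 arrays of days 2 to 8 of reprogramming the Pou5f1 probe read 7872 to 10568, Sox2 85.0 to 174.7 and Klf4 658.3 to 1038. Which of these probes read the cassette transcript was not tested.

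Genes that mark the rare 2-cell-like state of mESC cultures were lower in the clones. Of 18 such probes, 12 were called lower (66.7%, against 8.53% of all probes) and 0 higher, 7 were at least 2-fold down in all 4 clones (0.395% of all probes were), and the median was -0.77. The 12-group fit called 10 lower, and 10 calls held each time an array was left out. Gm5662 read 90.5, 171, 109 and 148 in the clones and 1552 and 1031 in mESCs (log2 difference -3.33, SE 0.26, limma adjusted p = 0.000176). Tdpoz3 read 35.0, 38.8, 38.3 and 40.2 against 239 and 179 (log2 difference -2.44, SE 0.12, limma adjusted p = 2.36e-05), and Zfp352, a zinc finger gene of the 2-cell embryo, read 68.7, 78.7, 85.2 and 85.5 against 210.5 and 155 (log2 difference -1.19, SE 0.13, limma adjusted p = 0.000871). Usp17la and Usp17lb, neighbouring genes of a deubiquitinase family with near-identical copies, differed by -1.33 and -1.17, and such copies may share probes. On the other 12 arrays of the series Gm5662 read 26.5 to 33.3.

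Germline genes split. Of 48 probes of germline and piRNA genes, 17 were called lower (35.4%) and 3 higher (6.2%), beside 8.53% and 10.9% of all probes, with a median of -0.13, and the 12-group fit called 12 lower and 3 higher. Hormad1, a protein of the meiotic chromosome axis, read 58.8, 68.2, 51.8 and 75.7 in the clones and 159 and 176 in mESCs on 1 of its 2 probes, a difference of -1.41. Piwil4 and Mov10l1 of the piRNA pathway differed by -1.02 and -0.77, and Stra8, the retinoic acid gene of meiotic entry, by -0.87. Tex15, which meiotic recombination and transposon silencing need, read 286, 380.4, 295 and 422 against 84.6 and 86.9 (log2 difference 1.99, SE 0.15, limma adjusted p = 0.000176). Outside the list, the widest fall on the array was Ccnb1ip1, a ubiquitin ligase of meiotic crossing over, at 156, 112, 137 and 138 in the clones and 1600.1 and 1911 in mESCs (12.99-fold; log2 difference -3.70, SE 0.13, limma adjusted p = 8.98e-06). The meiotic genes Stag3 and Syce1 were also called lower, with log2 differences of -1.42 and -1.48, and Dmc1 and Spata22 higher, with differences of 1.31 and 1.29.

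Other wide falls were in genes of different roles. C330024D21Rik read 132, 131, 133 and 80.9 in the clones and 1774 and 1211 in mESCs. Ceacam1, a cell adhesion gene, read 162, 227, 206 and 187 against 1709 and 1539 (log2 difference -3.06, SE 0.13, limma adjusted p = 1.55e-05). Calml4, a calmodulin-like gene, read 123, 133, 137 and 114 against 867 and 737, and Rpl39l, a ribosomal protein gene of germ cells, 90.9, 129.9, 117 and 122 against 607 and 602. Rpl10l, a testis copy of a ribosomal protein gene, Necab1, a neuronal calcium-binding protein gene, Fmr1nb and H60b, a ligand of the natural killer receptor NKG2D, fell by 1.95, 2.27, 2.18 and 2.14. For each of these genes the highest clone lay below the lower mESC array by at least 2-fold. Limma called all of them.

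**Figure D3:**
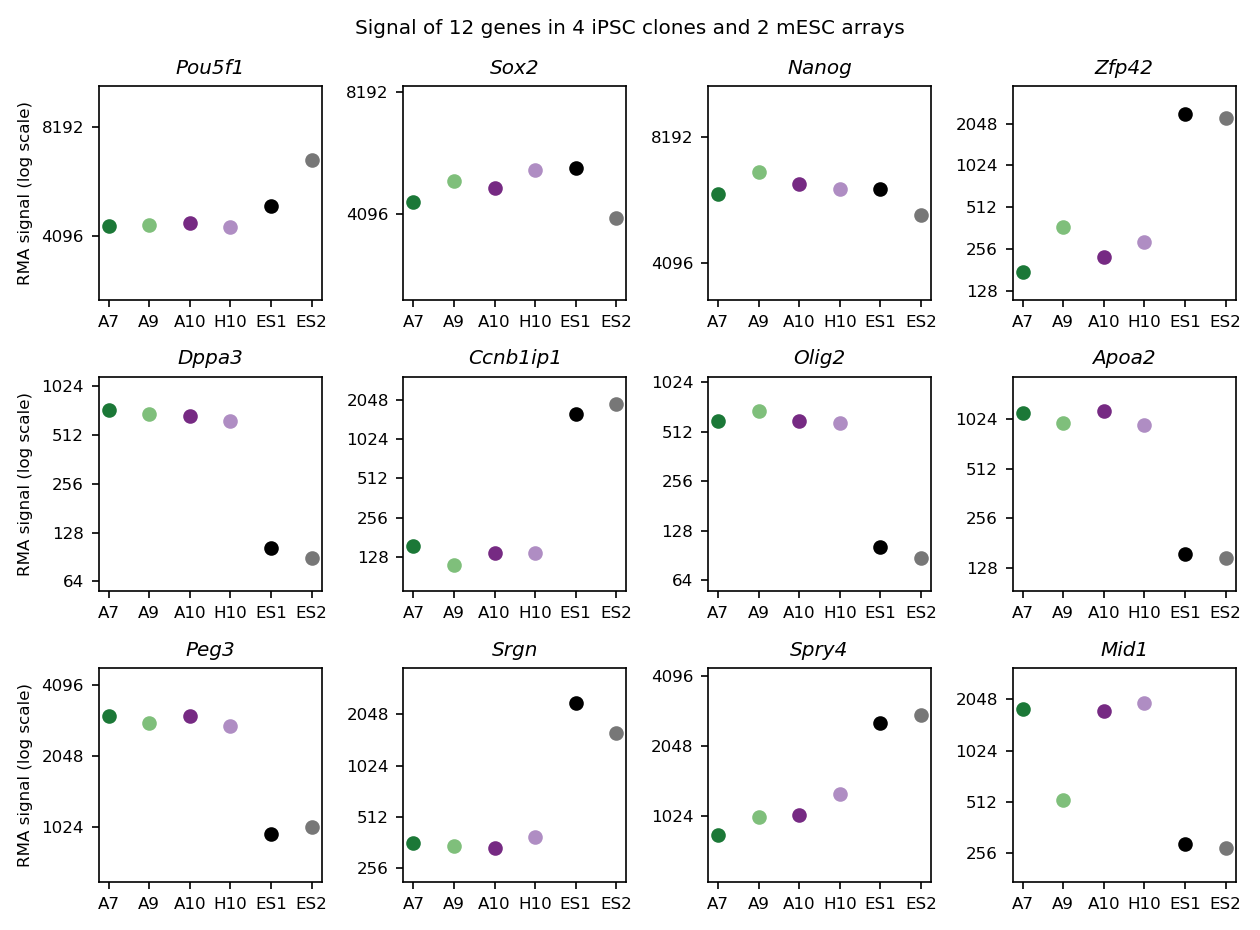
RMA signal (log axis, a separate range in each panel) of 12 genes on the arrays of clones A7, A9, A10 and H10 and on the 2 mESC arrays (ES1, ES2), 1 point per array. The clones sit together and apart from mESCs for Zfp42, Dppa3, Ccnb1ip1, Olig2, Apoa2, Peg3, Srgn and Spry4, overlap them for Sox2 and Nanog, and split for Mid1, where A9 read 522.

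Genes of myeloid immune cells were lower in the clones. Of 13 probes of immune cell genes, 9 were called lower (69.2%, against 8.53% of all probes) and 1 higher, with a median of -0.81, and the 12-group fit called 8 lower and 1 higher. Srgn, Ly86, Cd180, Spi1 and Cybb, given next, are not on this list. Srgn and Ly86 are among the widest falls on the array, and the others were chosen after their values were seen. Srgn, the proteoglycan of secretory granules, read 359, 348, 339 and 389.8 in the clones and 2396 and 1596 in mESCs (log2 difference -2.45, SE 0.15, limma adjusted p = 5.3e-05). High-KLF4 cells of day 8 read 3499.6 and 3695.2 for Srgn, above mESCs. Ly86, a partner of the Toll-like receptor homologue Cd180, read 51.6, 54.8, 57.3 and 53.3 against 479 and 303, and Cd180 itself differed by -1.55. Spi1 (PU.1), the transcription factor of the myeloid lineage, read 75.4, 99.5, 78.3 and 82.2 against 287 and 211 (log2 difference -1.56, SE 0.14, limma adjusted p = 0.000348). Cybb, a subunit of the phagocyte oxidase, differed by -1.89, the antigen presentation gene Cd74 by -1.70, and the signalling adaptors Fcer1g and Tyrobp by -1.44 and -1.30. Of the 3 defining markers, Ptprc (CD45) read 54.9, 55.8, 59.6 and 53 in the clones and 103 and 105 in mESCs, Csf1r 69.2, 69.0, 70.7 and 70.1 against 127 and 155, and Cd68 489, 446, 431 and 448 against 949 and 814. All 3 were called lower (Cd68 not in the 12-group fit, adjusted p = 0.282), and their summed signal was 561.7 to 613.1 in the clones, 1074 and 1179 in mESCs and 688.5 and 805.1 on the day 2 arrays. In primary keratinocytes it was 1431.5 and 1882.6, above mESCs. Cd68 made up most of each sum, so the sum does not measure immune cells. Lysozyme 2 (Lyz2) went the other way, at 833, 731, 714 and 779 against 426 and 355. Whether immune cells were part of the mESC samples was not tested.

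Targets of ERK and LIF signalling were called in both directions. Of 30 probes, 9 were called lower (30.0%) and 5 higher (16.7%), beside 8.53% and 10.9% of all probes, with 4 and 3 in the 12-group fit. Spry4, which restrains receptor tyrosine kinase signalling, read 847, 1012, 1029 and 1275 in the clones and 2563 and 2767 in mESCs (log2 difference -1.37, SE 0.14, limma adjusted p = 0.000563). Spred1, of the same inhibitor family, differed by -0.66 and the ERK-dependent ETS factors Etv4 and Etv1 by -0.56 and -0.50. Fgf18 read 314, 299.9, 262 and 231 against 1367 and 814, and Fgf15 356, 308, 237 and 281 against 724 and 839. These FGF ligands are not on the list, and Fgf4, another ligand, differed by 0.31 without being called (limma adjusted p = 0.0519). The immediate early gene Fos read 409, 437, 420.3 and 404 in the clones and 147 and 165 in mESCs (log2 difference 1.43, SE 0.07, limma adjusted p = 3e-05), and Egr1 1225, 1385, 1345 and 1228 against 616 and 479 (log2 difference 1.25, SE 0.11, limma adjusted p = 0.000273). Fosb and Jun differed by 1.39 and 0.96. All 4 clones lay above both mESC arrays for Fos, Egr1, Fosb and Jun, while Junb, Ier2 and Fosl1 were not called.

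The largest rises came from genes of several tissues. Apoa2, an apolipoprotein of high-density lipoprotein, read 1117, 967, 1151 and 946 in the clones and 155 and 147 in mESCs (log2 difference 2.79, SE 0.10, limma adjusted p = 8.98e-06). Olig2, a transcription factor of motor neuron and oligodendrocyte precursors, read 597, 687, 591 and 578 against 102 and 87.3 (log2 difference 2.70, SE 0.10, limma adjusted p = 8.98e-06). Its neighbour on chromosome 16, Olig1, read 286, 449, 279 and 346 against 84.3 and 87.1 (log2 difference 1.96, SE 0.18, limma adjusted p = 0.000307). On day 18 the mCherry+ low-KLF4 cells read 366.9 for Olig2 and 373.9 for Olig1, and the mCherry+ high-KLF4 cells 161.7 and 194.2. Car4, a membrane-bound carbonic anhydrase, read 3477, 3394, 3669 and 2704 against 853 and 493, and the single day 18 arrays read 5207 and 4996. Arl14epl, Tc2n, Trim12a, Cspg4b, Lgals3bp, Tubb4a and Ube2l6 differed by 2.19, 2.14, 2.03, 1.93, 1.91, 1.88 and 1.82, and in each all 4 clones were at least 2-fold above the mESC mean. Ube2l6 conjugates the interferon-induced modifier ISG15, Lgals3bp is a secreted glycoprotein and Tubb4a a neuronal tubulin. The calls of Lgals3bp and Ube2l6 were lost in the 12-group fit (adjusted p = 0.0729 and 0.0532).

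Of 24 neural probes, 9 were called higher (37.5%, against 10.9% of all probes) and 2 lower, with a median of 0.30, and the 12-group fit called 3 higher and 0 lower. Olig2 and Olig1 are both on this list. Sox11, a transcription factor of neural progenitors, read 548, 571, 549.8 and 589.7 in the clones and 236 and 221 in mESCs (log2 difference 1.30, SE 0.07, limma adjusted p = 3e-05). Nes, Nefl and Neurod1 differed by 0.92, 0.96 and 0.95, and of these the 12-group fit called Nefl only (adjusted p = 0.0764 for Nes and 0.323 for Neurod1). The other neighbours in gene order that moved together by 2-fold in all 4 clones were 7 pairs, among them Gstm3 with Gstm6 and Sdc2 with Cpq among the higher and Necab1 with Tmem64 among the lower. The 8 pairs held 16 genes, 9.4% of those so changed.

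Fibroblast and mesenchymal genes read higher in the clones, but this depended on the fit. Of 41 probes, 25 were called higher (61.0%, against 10.9% of all probes) and 0 lower, with a median of 0.51, 14 calls held each time an array was left out, and the 12-group fit called 1, Ccn1. Ccn1, a matrix-associated target of YAP and serum response factor, read 3334, 2998, 3195 and 2705 in the clones and 1128 and 1277 in mESCs (log2 difference 1.34, SE 0.10, limma adjusted p = 0.000144). Postn, a matrix protein, read 651, 573, 661 and 588 against 283 and 237 (log2 difference 1.25, SE 0.10, limma adjusted p = 0.000174), and Dcn, the proteoglycan decorin, 312, 312, 322 and 256 against 130.1 and 111 (log2 difference 1.32, SE 0.11, limma adjusted p = 0.000231; adjusted p = 0.0842 in the 12-group fit). The 12-group fit also takes spread from the pairs of day 8 arrays. For Postn these read 6874.9 and 916.3 (low-KLF4) and 6003.0 and 880.9 (high-KLF4). For Dcn they read 3216.4 and 1111.6, and 5407.0 and 4232.0. For Ccn1 they read 5705.1 and 7364.2, and 6575.2 and 5706.4. Thy1, a fibroblast surface protein, differed by 0.93, and the collagen genes Col1a1 and Col1a2 by 0.35 and 0.55 without being called (adjusted p = 0.194 and 0.0962 from limma). The 7 defining fibroblast markers summed to 5218 to 7071 in the clones, with 3 called higher, to 3685 and 3998 in mESCs and to 13784 and 15975 on the day 2 arrays. Clone A7 was the highest of the 4 for each of these 7 markers except Postn. The share of fibroblasts or feeder cells in the samples was not tested.

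More epithelial probes were called higher than lower. Of 35 probes of epithelial and epidermal genes, 13 were called higher (37.1%, against 10.9% of all probes) and 3 lower (8.6%, against 8.53%), with 2 and 1 in the 12-group fit. Cldn6, a tight junction claudin of embryonic epithelia, read 3915, 4009, 3661 and 3792 in the clones and 1722 and 1599 in mESCs (log2 difference 1.21, SE 0.07, limma adjusted p = 4.72e-05), and Cldn4 2312, 2496, 2678 and 2833 against 1226 and 1046 (log2 difference 1.18, SE 0.10, limma adjusted p = 0.000264). Esrp1, an epithelial splicing factor, differed by 0.95 and Cdh3, P-cadherin, by 0.93. The 12-group fit lost the calls of Cldn6, Cldn4, Esrp1 and Cdh3 (adjusted p = 0.102, 0.171, 0.269 and 0.243). Krt17, a keratin of basal epithelium, read 320.3, 314, 342 and 435 against 705 and 824 (log2 difference -1.12, SE 0.14, limma adjusted p = 0.00116).

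Genes of growth arrest and p53 targets were called higher at 11 of 25 probes (44.0%, against 10.9% of all probes) and lower at 0, with a median of 0.26, and the 12-group fit called 2 higher. Btg2 and Plk2, both targets of p53, differed by 0.90 (adjusted p = 0.121 in the 12-group fit) and 0.76. Of 45 interferon response probes 13 were called higher (28.9%) and 6 lower (13.3%, against 8.53% of all probes), with a median of 0.01 (2 and 0 in the 12-group fit). Oasl2 read 392, 460.0, 378 and 326 in the clones and 171 and 149.6 in mESCs, while Oasl1 differed by -0.55. Respiratory chain probes were called lower at 13 of 66 (19.7%) and higher at 3 (4.5%), with 1 and 1 in the 12-group fit. Glycolysis probes were called lower at 7 of 34 (20.6%) and higher at 2 (5.9%), with 0 and 1 in that fit. Cholesterol synthesis probes were called higher at 5 of 22 (22.7%) and lower at 1 (4.5%), and amino acid response probes higher at 2 of 25 (8.0%, below the 10.9% of all probes) and lower at 0, with no call in the 12-group fit for either list.

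Markers of other lineages were called in both directions, beside 10.9% higher and 8.53% lower over all probes. Primitive endoderm probes were called higher at 5 of 32 (15.6%) and lower at 6 (18.8%), among them Srgn (above), Apoe at 1.14 and the endocytic receptor Cubn at -1.05, while the defining genes Gata4, Gata6, Sox17 and Dab2 gave no call. Mesoderm probes were called higher at 5 of 24 (20.8%) and lower at 3 (12.5%), with the signal Bmp4 at -0.88 and Eomes at 0.72. Trophoblast probes were called higher at 3 of 23 (13%) and lower at 6 (26.1%), with the homeobox gene Rhox9 at -1.14. Genes of the epiblast and primed state were called higher at 4 of 18 probes (22.2%) and lower at 3 (16.7%), with Pou3f1 (Oct6) at 0.85 and Grhl2 at -0.81. TGF-beta, Nodal and BMP targets were called higher at 3 of 20 (15%) and lower at 3 (15%), with Tgfb2 at 1.05 and the activin subunit gene Inhbb at -1.17. Hox probes were called higher at 4 of 37 (10.8%) and lower at 0, and endothelial probes at 3 and 3 of 13 (23.1% each way). DNA methylation machinery was called higher at 2 of 22 probes (9.1%) and lower at 3 (13.6%), with the de novo methyltransferase Dnmt3b at 0.65. Of these examples the 12-group fit did not call Bmp4, Grhl2, Tgfb2 or Dnmt3b (adjusted p = 0.308, 0.244, 0.0581 and 0.0878). None of the 6 probes of 5 genes known to vary between mouse strains was called. With so few genes, and the mESC strain not given, this cannot show whether the strains differ.

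Among imprinted genes outside the Dlk1-Dio3 cluster, 14 of 61 probes were called higher (23.0%, against 10.9% of all probes) and 11 lower (18.0%, against 8.53%), with a median of 0.02. The 12-group fit called 3 higher and 2 lower. Peg3, a paternally expressed zinc finger gene, read 3022, 2833, 3011 and 2734 in the clones and 948 and 1022 in mESCs (log2 difference 1.56, SE 0.07, limma adjusted p = 2.36e-05). Every clone was at least 2-fold above the mESC mean, and Usp29 and Zim1 of the same imprinted domain differed by 0.92 and 0.72. Plagl1 (Zac1), which regulates a network of imprinted genes, read 567, 607, 577 and 463 against 231 and 191 (log2 difference 1.39, SE 0.12, limma adjusted p = 0.000284). Igf2, the growth factor expressed from the paternal copy, read 4050.3, 3593, 4066 and 3467 against 2806 and 2097, a difference of 0.64. The 12-group fit called neither Igf2 nor Zim1 (adjusted p = 0.406 and 0.159). Zdbf2 read 447, 399, 356 and 365 against 807 and 933 (log2 difference -1.15, SE 0.11, limma adjusted p = 0.000348), and Sfmbt2 885, 725, 682 and 595 against 1373 and 1468, a difference of -0.99 whose call the 12-group fit lost (adjusted p = 0.103). The array does not tell the parental copies apart.

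The Dlk1-Dio3 cluster did not separate the clones from mESCs as a group. Of its 37 probes, 0 were called higher and 2 lower (5.4%, against 8.53% of all probes) by limma in the 6-array fit, and 0 and 0 in the 12-group fit. By overlap alone 1 probe lay higher and 9 lower in all 4 clones than on both mESC arrays, where 19.7% and 22.3% of all probes did. Meg3, its maternally expressed noncoding RNA, read 1025, 709.8, 1192 and 689 in the clones and 821 and 925 in mESCs (log2 difference 0.01, SE 0.22, limma adjusted p = 0.977). Clones A7 and A10 were above both mESC arrays and clones A9 and H10 below both. Dlk1, the paternally expressed ligand of the cluster, read 541, 436, 500.3 and 442 against 441 and 487, and Rian 61.5, 44.2, 73.7 and 52.0 against 64.6 and 68.7.

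The same clones were low at the microRNA genes of the cluster. Over the 31 microRNA probes, A9 lay below both mESC arrays at 30 and H10 at 27, while A7 did so at 13 and A10 at 10. Over all probes A9 did so at 44.1% and H10 at 38.9%. These counts give no sizes, and some gaps were small and on probes near the lowest signal of the 6 arrays, 20.4. In A9, Mir376c read 21.2 against 21.7 and 22.7 in mESCs, and Mir495 23.8 against 24.1 and 25.2. Other gaps were wider, such as that of Mir377 (61.9 in A9 against 154 and 101). The median log2 difference of the 31 probes from the mESC mean was -0.03 in A7, -0.29 in A9, 0.01 in A10 and -0.22 in H10. Over 274 probes of other microRNA genes these medians lay between -0.0301 and -0.015, and A9 and H10 were below both mESC arrays at 123 and 113. With each array centred on its median the cluster's medians were -0.11, -0.36, -0.03 and -0.28, so that the sign of A10 flipped. A9 is a low-KLF4 clone and H10 a high-KLF4 clone, and no test was made of clones chosen for their values.

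Mir377 read 115, 61.9, 153 and 59.2 in the clones and 154 and 101 in mESCs, so A9 and H10 lay below both mESC arrays and A7 and A10 between them. Mir382 read 113, 66.7, 120.2 and 60.0 against 106 and 88.5, so A9 and H10 lay below both mESC arrays and A7 and A10 above both. Mir134 read 261, 201, 297 and 186 against 317 and 313 and Mir485 98.1, 78.9, 110.3 and 72.4 against 124 and 132, where all 4 clones were below mESCs. Mir668, called lower (log2 difference -0.51, SE 0.11, limma adjusted p = 0.0132), read 144, 117, 149 and 121 against 190.0 and 187, and Mir431 was the other call (log2 difference -0.33, SE 0.09, limma adjusted p = 0.0343). DQ267102, a small nucleolar RNA gene that RefSeq places within Rian, read 407, 209, 606 and 212 in the clones and 548 and 1068 in mESCs, again with A9 and H10 lowest. These probes read the region of the precursor in total RNA, and no mature microRNA was measured.

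The mature products of the 5 microRNA genes that lay lowest against the mESC mean in H10 are given from RefSeq (GRCm38.p6, plus strand of chromosome 12), with the seed, bases 2 to 8, in capitals. They are shown because these are the genes at which H10 lay farthest below mESCs, and no seed is shared between them.
mmu-miR-134-3p: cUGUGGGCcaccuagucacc
mmu-miR-134-5p: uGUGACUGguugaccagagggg
mmu-miR-377-3p: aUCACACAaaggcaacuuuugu
mmu-miR-377-5p: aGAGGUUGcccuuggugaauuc
mmu-miR-382-3p: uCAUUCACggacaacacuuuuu
mmu-miR-382-5p: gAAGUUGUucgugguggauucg
mmu-miR-485-3p: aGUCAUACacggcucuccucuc
mmu-miR-668-3p: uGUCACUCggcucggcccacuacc
mmu-miR-668-5p: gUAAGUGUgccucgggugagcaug

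Within the cluster, 2 seeds were shared by a pair of products each, miR-379-3p with miR-411-3p and miR-376b-5p with miR-376c-5p. All 31 microRNA probes matched a RefSeq mature sequence, 58 sequences in all.

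**Figure D4:**
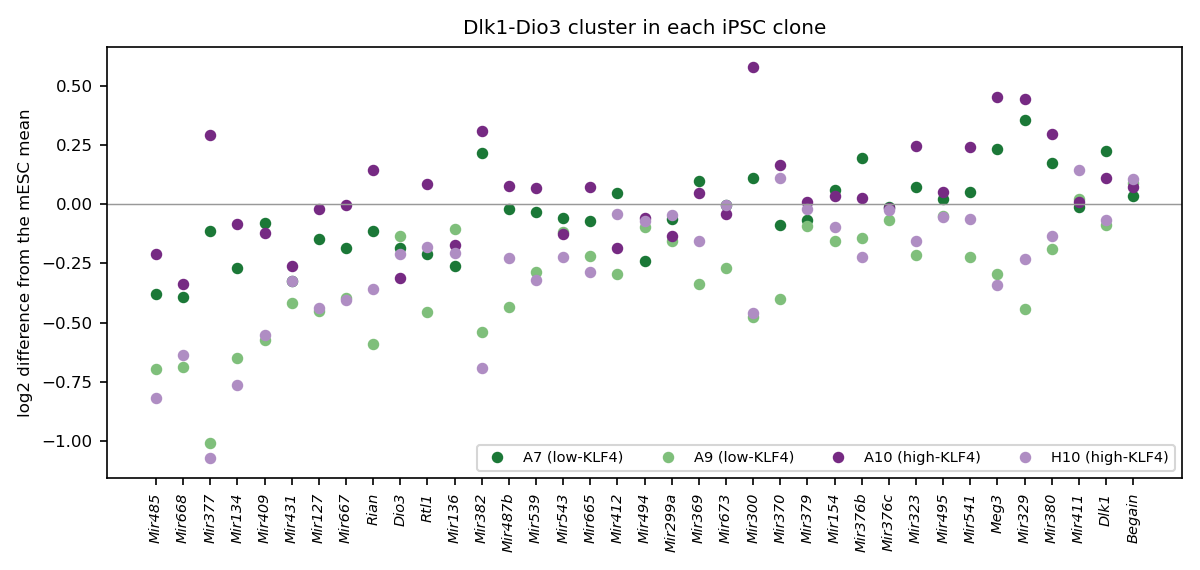
Log2 difference of each iPSC clone from the mESC mean for the 37 probes of the Dlk1-Dio3 cluster, ordered by the mean over the clones, 1 point per clone. The points of A9 (light green) and H10 (light purple) lie below 0 for most microRNA genes and reach -1.07 in H10 at Mir377, while those of A7 and A10 lie on both sides of 0.

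Eif2s3y, a Y-linked translation factor gene, read 1232, 1388, 1357 and 1354 in the clones and 1331 and 991 in mESCs, and Uty 524, 562, 515 and 499.6 against 625 and 553. Of 11 Y-linked probes, 2 were called higher (Kdm5d at 0.83 and Zfy1 at 0.84) and 2 lower, both of Uba1y, at -1.04 and -1.21, which is 18.2% each way against 10.9% and 8.53% of all probes. The calls of Kdm5d and Zfy1 were lost in the 12-group fit (adjusted p = 0.558 and 0.0515). Xist, the noncoding RNA that silences an X chromosome, read 212, 157, 170.4 and 152 against 101 and 88.6 (log2 difference 0.86, SE 0.13, limma adjusted p = 0.00378; adjusted p = 0.818 in the 12-group fit), and the other 7 probes of the X-inactivation centre were not called. The spread of the 12-group fit includes the keratinocyte pair, which read 4076.6 and 46.6 for Xist and 51.6 and 352.2 for Kdm5d. For Zfy1 that pair read 28.3 and 34.4. Why the 12-group fit lost the calls of Kdm5d, Zfy1 and Xist was not tested.

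Single clones stood apart from the rest at few probes. Mid1, a gene that crosses the pseudoautosomal boundary of the laboratory mouse X, read 1803, 522, 1751 and 1959 in the clones and 289 and 275 in mESCs. A9 was the only clone near the mESC arrays, and Mid1 was the only probe at which a clone differed by at least 2-fold from all of the other 3. The call of Mid1 (log2 difference 2.25, SE 0.48, limma adjusted p = 0.0134) was lost in the 12-group fit (adjusted p = 0.0742). At 1.5-fold, A7 stood above the other 3 clones at 6 probes and below them at 3, A9 at 2 and 1, A10 at 0 and 0, and H10 at 10 and 15. Fgf5, a marker of the primed epiblast, read 369, 198, 209 and 154 and Car14 390.5, 289, 299 and 181, each highest in A7. G530011O06Rik, an X-linked gene, read 307, 228, 242 and 478, highest in H10. Bin2 read 365, 1180.0, 996 and 507 in the clones and 1261 and 846 in mESCs, so A7 and H10 lay below mESCs and A9 and A10 within their range. Capn11, a testis calpain, read 189, 300.2, 188 and 133, highest in A9.

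Between the high-KLF4 and low-KLF4 clones limma called 0 of 21789 probes (0%), with 488 at an unadjusted p under 0.05. The 12-group fit called 0 as well, with 196 at an unadjusted p under 0.05. With 2 clones a side, differences smaller than the spread between clones were not detectable.

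One clone departed from the others over a whole chromosome. On chromosome 8, over 800 probes left after the dimmest 30% were set aside, H10 had a median log2 difference of 0.20 from the mESC mean, while A7, A9 and A10 had -0.02, -0.03 and -0.05. On the other 19 chromosomes (the Y left out) the medians of H10 lay between -0.02 and 0.03 and those of the other clones between -0.04 and 0.06. Against the mean of the other 3 clones, H10 was 0.24 higher on chromosome 8, a 1.18-fold difference, and 0.00 on the other chromosomes.

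The shift of H10 ran along the whole chromosome. H10 was the highest of the 4 clones at 632 of the 800 probes (79.0%), against 27.3% on the other chromosomes. In 8 consecutive bins of 100 probes each, from Insr to Itgb1, its median difference from the other clones lay between 0.19 and 0.26. It was 0.16 over the 384 dimmer and 0.28 over the 416 brighter probes. With the Y left out, no other clone and no mESC array showed a chromosome median beyond 0.06 in size. DNA copy number was not measured, and since a single clone showed the shift there is no test of it.

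Of the 5 genes on chromosome 8 that the naming rule took, Tex15, Ccl25 and Psmb10 were highest in H10, Foxf1 was lowest in H10 and Zfp42 was highest in A9. Ccl25, a thymic and intestinal chemokine, read 414, 422, 375 and 597 in the clones and 126 and 129 in mESCs, so that all 4 clones were above mESCs. Psmb10, an immunoproteasome subunit, read 283, 256, 267 and 343 against 391 and 445, and Foxf1, a mesoderm transcription factor, 167, 160.3, 164 and 154 against 97.0 and 81.2. Limma called 120 of the 800 probes higher and 47 lower, and without H10 113 higher and 81 lower. A fit of all 15252 probes left after the same filter called 2351 higher and 1666 lower. The share called higher on chromosome 8 was thus close to that over all such probes. Without H10 the fit of all 21789 probes called 2228 higher and 1566 lower.

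**Figure D5:**
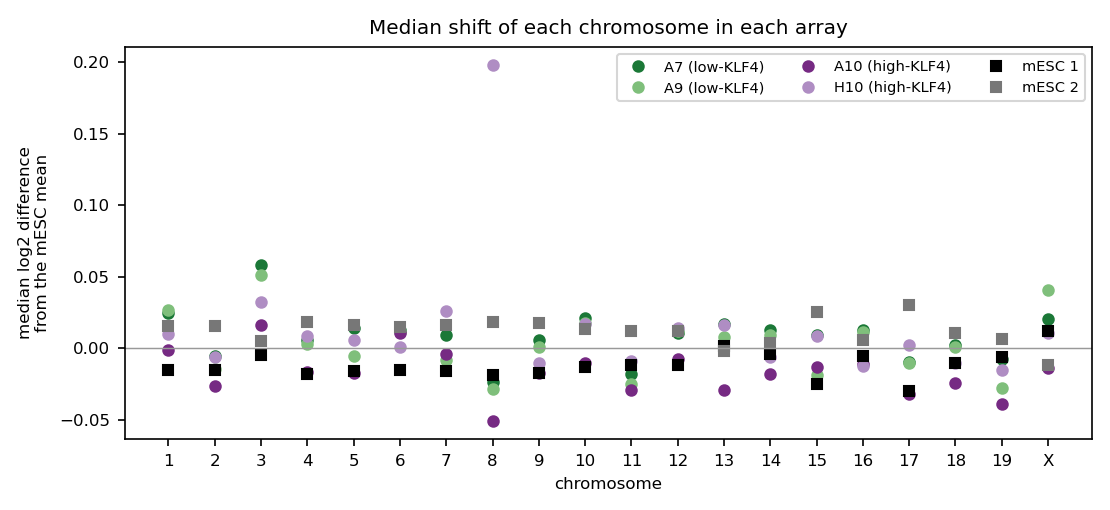
Median log2 difference from the mESC mean over the probes of each chromosome but the Y, after the dimmest 30% of probes were set aside, for the 4 clones (circles) and the 2 mESC arrays (squares). H10 on chromosome 8 stands at 0.20, and every other point plotted lies within 0.06 of 0.

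The 2 shared sets had different levels in the other cells of the series, given as a description because the sets were chosen on clones and mESCs. The median signal of the 95 higher probes was 628 and 623 in the low-KLF4 and high-KLF4 clones and 207 in mESCs. It was 268 and 330 in the mCherry+ cells of day 2, 467 and 509 in those of day 18 and 145.5 in keratinocytes. The 86 lower probes had medians of 124.5 and 115.3 in the clones and 356 in mESCs. They had 79.6 and 76.0 on day 2, 94.3 and 90.5 on day 18 and 64.5 in keratinocytes, while the median of all probes stayed between 179.6 and 206 in every group.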

How the data were processed

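RNA of 4 iPSC clones and 2 mESC arrays was hybridised to Affymetrix Mouse Gene 1.0 ST arrays. The deposited intensities are on a linear scale. The authors had processed them by RMA, run in GeneSpring, which corrects background, quantile-normalises and summarises the probes of a transcript. The precision is limited by the number of arrays. Symbols came from the platform annotation, and 21698 of the 21789 single-symbol probes matched a RefSeq gene (GRCm38.p6), which gave the chromosome and the gene order. Probes with several symbols (1621) or none (5443) were left out of the main counts.

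Log2 was taken of each intensity. The test was limma 3.58.1 (R 4.3.3) on the 6 arrays in 2 groups, with 4 residual and 4.28 prior degrees of freedom and Benjamini-Hochberg adjustment over all 21789 probes at 0.05. A fit of 18 arrays in 12 groups, a fit in 3 groups (also used for high-KLF4 against low-KLF4 clones), other normalisations and filters, the methods' t-test in limma's place and leaving out each array were alternatives. The code was tested on simulated data. Of the 28 gene lists (865 entries), probes were matched by symbol and counted singly.

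Named genes were the 15 widest rises and 15 widest falls without overlap, 2 per list and direction, the 5 probes farthest each way on each array, called members of the Dlk1-Dio3, Y-linked and X-inactivation lists, Pou5f1, Sox2, Nanog, Esrrb, Zfp42 and the cassette factors. A gene outside this rule was chosen after its values were seen, as were its list's further examples. The members and lists were chosen with earlier results of these data known. By the methods the mESC arrays are independent experiments on 1 line, and each clone has 1 array, so p-values measure the spread between these arrays only, and the sources used here do not give feeder cells, passage or array batch. Clone or mESC origin and batch cannot be told apart.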

Additional observations from a re-analysis of the deposited data

Results flagged for a closer look

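In 7 results 1 of the 4 clones stood far from the other 3, by the gap to the nearest clone as a share of the range of the 4 (Dixon's ratio, above its 95% critical value). Chance gives such a ratio in about 1 of 20 groups, and among the 120 named probes 6 had it. For Mid1 (ratio 0.915) A9 read 522, and for a probe of Uba1y (0.984) A9 read 212.5. H10 was the low clone for Arl14epl (0.95, signal 2576), Dcn (0.858, 256.3), Syt1 (0.956, 84.6) and C330024D21Rik (0.965, 80.9). The seventh was the median log2 difference on chromosome 8 (0.891), where H10 had 0.20. Chromosome 8 was singled out because H10 stood apart there, so its ratio is no test. Some named probes, Mid1 and C330024D21Rik among them, were also taken for lying far out on 1 array. The rate of 1 in 20 does not apply to those.

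Among the 7064 probes without exactly 1 symbol, which the report's own counts left out, 17 lay at least 2-fold above the mESC mean in all 4 clones and 45 at least 2-fold below it.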

How the results depend on the processing

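The counts called depended most on how the spread was estimated. Against 2371 higher and 1858 lower, the 12-group fit over 18 arrays called 432 and 462, the low-KLF4 clones alone 1251 and 630, the high-KLF4 clones alone 883 and 560, and the methods' t-test 653 and 543 after adjustment and 3009 and 3027 at an unadjusted p under 0.05. Fewer arrays entered the fits of 1 cassette. The 12-group fit also takes spread from the pairs of day 8 and keratinocyte arrays, and the cause of its count was not tested. The other alternatives gave counts within 1.5 times. Leaving out each array gave 1521 to 2514 higher and 977 to 2444 lower, the lowest of both without mESC array 2. The sets at 2-fold in all 4 clones, 95 and 86, held 482 and 289 at 1.5-fold and, with each array left out, 77 to 145 and 87 to 110. Of the 114 named probes called, 68 were also called by the 12-group fit and 85 each time an array was left out, and none of the 120 reversed. On chromosome 8, H10 had 0.24 without the dimmest 50% of probes and 0.14 with each array centred on its median, which put A7, A9 and A10 at -0.10, -0.10 and -0.0851, so that the gap between H10 and the others stayed. No paired analysis was possible because the clones carry no replicate number in the labels. With 2 mESC arrays of 1 line, small differences were not detectable, and no detection call shows which dim probes were above background.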
